A study of Mus musculus with 6 samples.

Results

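The 10 genes described here, Ttr, Sostdc1, Enpp2, Folr1, Kl, Prlr, Trpm3, Clic6, Kcne2 and Otx2, are known for their expression in the choroid plexus and were taken from 55416 annotated genes. They were chosen from the counts of these same 6 libraries, which had shown Ttr higher in the mutant samples, so their differences between the groups are given as a description, and counts of calls among them serve only to place them in the whole table. RNA was counted in cells labelled as oligodendrocyte precursors, isolated at postnatal day 11 from the cortices of 4 to 6 pooled mice per sample. Of these samples, 3 (cKO) carried 2 floxed copies of Ift88, a gene of the transport machinery inside cilia without which cilia do not form, and 3 (control) carried 1 floxed and 1 wild-type copy. All 6 carried Pdgfra-Cre, so that deletion was limited to cells in which the Pdgfra promoter had been active, and a Rosa EYFP reporter. With a wild-type copy left in the controls, the comparison is between loss of 1 and of both Ift88 copies in Cre-expressing cells, not between mice with and without Cre.

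The choroid plexus is a sheet of ciliated epithelium over a vascular stroma that hangs in the brain ventricles and secretes cerebrospinal fluid. Its epithelial cells make large amounts of transthyretin, import folate, move ions and water into the ventricle, and release signalling proteins such as autotaxin and Klotho. The plexus lies outside the cortical tissue named for these samples. Several of its genes are not exclusive to it: Ttr is also abundant in liver and in the retinal pigment epithelium, Otx2 and Trpm3 are active in the pigment epithelium, and Enpp2 is made by maturing oligodendrocytes.

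Otx2 and Trpm3 are the 2 genes of the list whose values most nearly switched between the groups, and their promoter sequences are shown for that reason. Otx2 encodes a homeodomain protein of the bicoid type, whose preferred site is TAATCC. The word TAATTA is a core bound by many other homeodomain proteins. Both words were picked after the sequences had been seen. RefSeq (GRCm38.p6) gave promoter windows, from 250 bases before to 50 after a transcript start, for 5 of the 10 genes, with 12 windows in all. Of the 4 Otx2 windows the 2 with a match are shown; the other two held neither word. Both Trpm3 windows are shown. Capitals mark TAATCC or TAATTA on either strand; overlapping matches run together.
Otx2 start 1, chr14:48667595-48667894, minus strand: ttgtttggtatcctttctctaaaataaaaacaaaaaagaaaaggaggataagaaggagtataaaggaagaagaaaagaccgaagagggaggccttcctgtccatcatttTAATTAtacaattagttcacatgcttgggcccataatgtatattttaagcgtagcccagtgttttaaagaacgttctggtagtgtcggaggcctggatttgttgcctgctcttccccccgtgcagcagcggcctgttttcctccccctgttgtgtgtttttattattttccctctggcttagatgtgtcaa
Otx2 start 3, chr14:48665060-48665359, minus strand: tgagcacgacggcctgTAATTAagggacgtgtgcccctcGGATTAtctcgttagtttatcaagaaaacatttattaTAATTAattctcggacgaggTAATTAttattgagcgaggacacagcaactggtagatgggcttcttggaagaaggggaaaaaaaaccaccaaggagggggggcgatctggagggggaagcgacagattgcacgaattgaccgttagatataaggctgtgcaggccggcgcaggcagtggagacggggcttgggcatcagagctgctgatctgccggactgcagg
Trpm3 start 1, chr19:22138796-22139095, plus strand: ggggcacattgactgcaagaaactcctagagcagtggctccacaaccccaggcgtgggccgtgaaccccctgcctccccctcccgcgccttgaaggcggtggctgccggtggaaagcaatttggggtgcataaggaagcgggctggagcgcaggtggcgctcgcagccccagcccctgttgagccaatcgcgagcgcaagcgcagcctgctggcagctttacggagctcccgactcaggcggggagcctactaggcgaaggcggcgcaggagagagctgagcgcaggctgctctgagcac
Trpm3 start 2, chr19:22447958-22448257, plus strand: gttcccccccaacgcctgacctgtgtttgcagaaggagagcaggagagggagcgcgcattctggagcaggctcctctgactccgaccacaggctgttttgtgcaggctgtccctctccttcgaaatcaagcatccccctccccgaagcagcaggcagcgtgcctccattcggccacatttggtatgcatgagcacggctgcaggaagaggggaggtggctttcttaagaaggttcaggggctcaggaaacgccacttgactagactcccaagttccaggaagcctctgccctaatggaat
A TAATCC match was present in 1 of the 12 windows and a TAATTA match in 2, all of them at Otx2. Among all 32851 windows of 300 bases, 7.06% held TAATCC and 5.29% held TAATTA. Neither word was found in the Trpm3, Kl, Kcne2 or Prlr windows. These are matches of letters only.

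Trpm3 also hosts a microRNA gene, Mir204, at positions 22750605 to 22750672 of chromosome 19, within Trpm3 at 22137797 to 22995410 (GRCm38.p6). Its relative Mir211 lies within Trpm1 on chromosome 7. The mature 5' arms are shown with the seed, bases 2 to 8, in capitals, because both share it.
mmu-miR-204-5p: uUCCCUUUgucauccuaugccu
mmu-miR-211-5p: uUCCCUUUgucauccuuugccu
The arms have 22 bases each, share the seed UCCCUUU and differ at 1 base, position 17 from the 5' end. Both hairpin genes had 0 counts in these libraries, which were primed on polyadenylated RNA and do not measure mature microRNAs, and Trpm1 also had 0 counts throughout.

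Depth and gene detection bear on every value below. Total counts lay between 11773548 and 13909236 in 5 libraries and were 568509 in cKO replicate 2, where 3651 genes had a count against 14047 to 16252 elsewhere. A count of 0 allowed up to 0.216 to 0.255 CPM (counts scaled to a common library total) in the 5 deeper libraries, and in cKO replicate 2 up to 5.28 CPM, for a limit of 3 counts. Detection was steep: in the 5 deeper libraries 73.4% to 75.0% of the genes with a count had 50 or more, and 15.4% to 21.7% had 1 to 9. In cKO replicate 2, 56.4% of the genes with a count had 1 to 9. Intervals and limits cover counting error only, since PCR copies are not independent molecules. Ift88 itself had 143, 32 and 167 counts across controls, against 1, 0 and 305 across cKO libraries; the sources used here do not say which exons are removed, and a tag at the end of the transcript can lie outside them, so these counts do not check the labels. The libraries count 1 tag near the end of each transcript, so a CPM value needs no length correction. None of the 10 genes shared any of its last 500 exon bases with another annotated gene, and at most 5.97% of all exon bases (Enpp2) were shared.

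Ttr, which encodes transthyretin, the carrier of thyroid hormone and of retinol-binding protein, was the gene with the widest range. It lies on chromosome 18 at 20798337 to 20807378 (GRCm39, plus strand). Its level was 25.1, 7.37 and 0.147 CPM in control replicates 1 to 3 and 376, 45945 and 574 CPM in cKO replicates 1 to 3. All cKO values lay above all control values, and the lowest cKO value was 14.9-fold the highest control value. In control replicate 3 the level rested on 2 counts, with an upper 95% Poisson limit of 0.532 CPM. Ttr ranked 1 among all genes in cKO replicate 2, with 4.59% of the library, 422 and 232 in cKO replicates 1 and 3, and 6010, 9626 and 14686 in the controls. The group means were 10.9 ± 12.9 CPM for controls, against 15631 ± 26252 CPM for cKO (SD, n = 3), a 1437-fold ratio carried mainly by cKO replicate 2. Without that library the cKO mean was 475 CPM, 43.6-fold the control mean. The direction was the same with and without the shallow library, and the size of the difference was not.

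**Figure D1:**
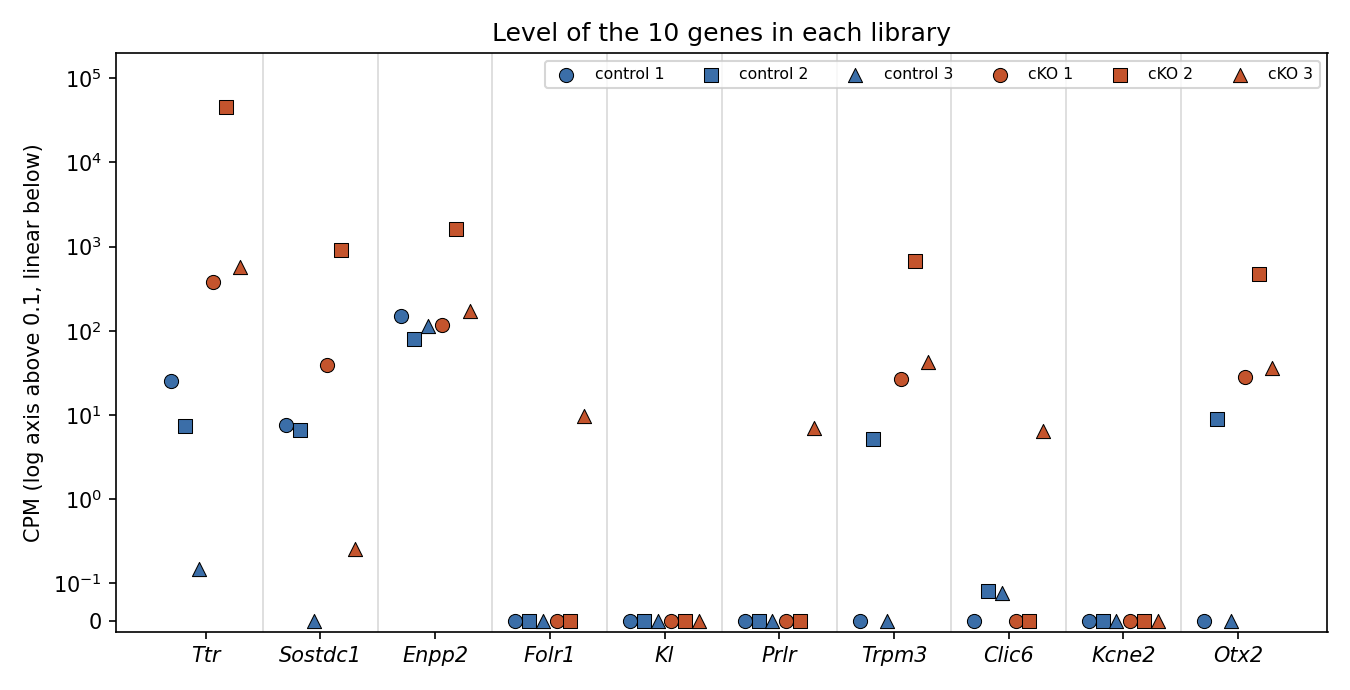
Level of each of the 10 genes (CPM, log axis above 0.1 and linear below) in each library, with controls in blue, cKO samples in orange and the replicate number as the marker shape. Ttr, Trpm3 and Otx2 are higher in all 3 cKO libraries than in any control, Enpp2 is at a like level in 5 libraries, and Kl and Kcne2 are at 0 throughout.

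The other secreted proteins of the list behaved differently from Ttr and from each other. Sostdc1 (chromosome 12, 36364138 to 36368451, plus strand, GRCm39) encodes a secreted antagonist of BMP and Wnt signals. It had 105, 84 and 0 counts in controls, against 549, 525 and 3 counts in cKO libraries, or 7.69, 6.58 and 0 CPM against 39.5, 923 and 0.255 CPM. The groups overlapped: cKO replicates 1 and 2 were above all controls, while cKO replicate 3 was below control replicates 1 and 2. The means were 4.76 ± 4.16 against 321 ± 522 CPM (SD, n = 3), or 19.9 CPM in the cKO group without replicate 2. Replicate 3 thus held the second-highest Ttr level and 3 counts of Sostdc1.

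Enpp2 (chromosome 15, 54702297 to 54816288, minus strand, GRCm39) encodes autotaxin, the secreted enzyme that makes lysophosphatidic acid. It was the only gene of the list with 20 or more counts in every library, with 148, 80.1 and 113 CPM in controls, against 117, 1636 and 174 CPM in cKO libraries. Apart from cKO replicate 2, the values of both groups were interleaved. The means were 114 ± 34.2 and 642 ± 861 CPM (SD, n = 3), a 5.65-fold ratio that was 1.28-fold without cKO replicate 2.

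Otx2 and Trpm3 had nearly the same profile over the 6 libraries. Otx2 (chromosome 14, 48895134 to 48911276, minus strand, GRCm39), a transcription factor needed to form and maintain the choroid plexus, had 0, 114 and 0 counts in controls, against 390, 271 and 427 in cKO libraries. Trpm3 (chromosome 19, 22116410 to 22972774, plus strand, GRCm39), a calcium-permeable cation channel, had 0, 67 and 0 counts in controls, against 371, 379 and 500 in cKO libraries. Control replicate 2 was the only control with a count of either gene, and no cKO value of either overlapped a control value.

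In CPM, Otx2 was at 0, 8.94 and 0 in controls, against 28, 477 and 36.3 in cKO libraries, and the lowest cKO value was 3.14-fold the highest control value. The means were 2.98 ± 5.16 against 180 ± 257 CPM (SD, n = 3), and the cKO mean was 32.2 CPM once replicate 2 was left out, which is 10.8-fold the control mean. Trpm3 was at 0, 5.25 and 0 CPM in controls, against 26.7, 667 and 42.5 CPM in cKO libraries, with a 5.08-fold gap between the nearest values. Its means were 1.75 ± 3.03 against 245 ± 365 CPM (SD, n = 3), and the cKO mean was 34.6 CPM once replicate 2 was left out, 19.7-fold the control mean. Of 1162 genes with 100 or more counts in every cKO library, 2 were at 0 in at least 2 controls, and these were Otx2 and Trpm3; at 50 or more counts there were 5 of 1283, and at 250 or more 2 of 690. The pattern and these count levels were both set after the values of Otx2 and Trpm3 were seen. Nothing is therefore read from these numbers.

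The receptor genes and the remaining channel genes were at or near 0 in most libraries. Folr1 (chromosome 7, 101507538 to 101519995), the folate receptor through which the plexus carries folate into the fluid, had 115 counts in cKO replicate 3 and 0 in the other 5 libraries. Prlr (chromosome 15, 10177324 to 10349266), the prolactin receptor, had 82 counts in the same library and 0 elsewhere. Clic6 (chromosome 16, 92282624 to 92338131), a chloride intracellular channel protein, had 76 counts there and at most 1 in any other library. In CPM these were 9.77, 6.96 and 6.46 in cKO replicate 3. Kl (chromosome 5, 150876072 to 150917282), the Klotho co-receptor of FGF23, and Kcne2 (chromosome 16, 92089277 to 92095017), a potassium channel subunit, had 0 counts in all 6 libraries. All coordinates are those of GRCm39.

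Counts confined to 1 library occurred in every library. In cKO replicate 3, 220 of the 11882 genes with 50 or more counts, 1.85%, had at most 1 count in every other library, and this share lay between 1.18% and 2.40% in the others. At the depth of cKO replicate 2, the counts of Folr1, Prlr and Clic6 in cKO replicate 3 would correspond to 5.55, 3.96 and 3.67 counts, so a level like that of replicate 3 was near the limit of detection in replicate 2. It would have been well above the limit in cKO replicate 1, where all 3 genes were at 0.

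Counted together, 7 of the 10 genes had 20 or more counts in cKO replicate 3, 5 in each of cKO replicates 1 and 2, and 3, 5 and 1 in control replicates 1 to 3. Their summed level was 181, 108 and 113 CPM in controls, against 587, 49647 and 850 CPM in cKO libraries, or 134 ± 40.9 against 17028 ± 28250 CPM (SD, n = 3). Without cKO replicate 2 the cKO mean was 718 CPM. The make-up of the sum also differed. Enpp2 made up 81.9%, 74.0% and 99.8% of it in controls. In cKO libraries it made up 19.9%, 3.29% and 20.4%, and Ttr made up 64.0%, 92.5% and 67.5%. Leaving out Ttr and Enpp2, the other 8 genes summed to 7.69, 20.9 and 0.0737 CPM in controls, against 94.2, 2067 and 102 CPM in cKO libraries. In bulk samples such as these, more cells of a type and more RNA per cell cannot be told apart.

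**Figure D2:**
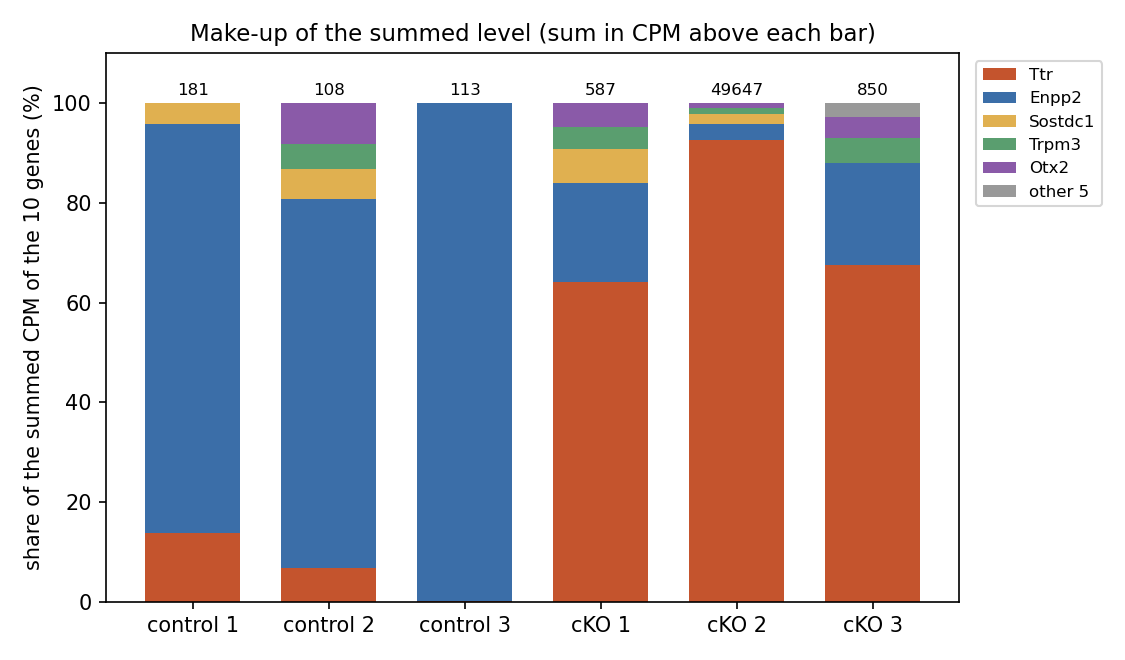
Share of the summed CPM of the 10 genes taken by each gene (percent) in each library, with the sum in CPM printed above each bar. Enpp2 takes 74.0% to 99.8% of the sum in the controls and Ttr takes 64.0% to 92.5% in the cKO libraries.

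High CPM values in cKO replicate 2 were not particular to these genes. Of 1441 genes with 50 or more counts in that library, 1161 (80.6%) had their highest CPM there. Among the 1424 of them with a count elsewhere, the median ratio to the highest other library was 3.03. The ratio was 80.1 for Ttr, 23.4 for Sostdc1, 15.7 for Trpm3, 13.1 for Otx2 and 9.42 for Enpp2, ranking 19, 117, 169, 204 and 289 of 1424. The part of the low total count in these ratios was not tested. When all libraries were thinned at random to 568509 counts, Ttr kept 24, 7 and 0 counts in the controls, against 200, 26120 and 325 in the cKO libraries.

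**Figure D3:**
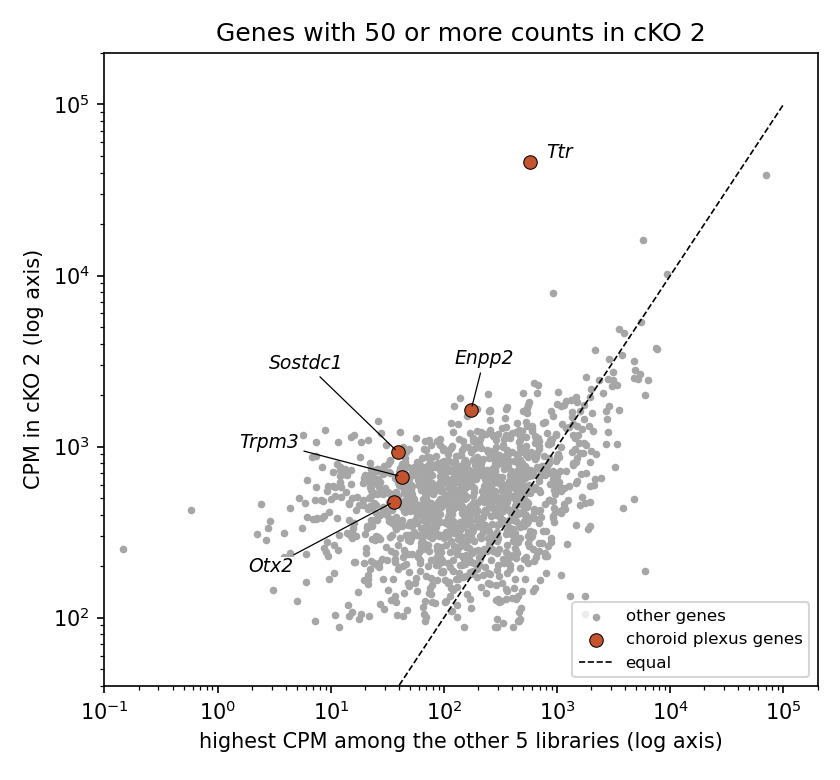
CPM in cKO replicate 2 against the highest CPM among the other 5 libraries (both log axes) for genes with 50 or more counts in cKO replicate 2 and a count elsewhere, with 5 of the choroid plexus genes in orange. Most genes lie above the dashed line of equal level, and Ttr lies 80.1-fold above it.

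The comparison of cKO with control samples was fitted over all genes to give these values a scale. Of the 10 genes, 5 (Ttr, Sostdc1, Enpp2, Trpm3 and Otx2) had enough counts to be among the 12833 tested, which they owe in part to the cKO libraries. Their log2 fold changes were 10.38 (SE 3.83) for Ttr, 7.01 (SE 2.11) for Trpm3, 5.96 (SE 1.86) for Sostdc1, 5.80 (SE 2.12) for Otx2 and 2.43 (SE 1.10) for Enpp2, beside a median of -0.44 over all genes tested. Without cKO replicate 2 they were 5.41 (SE 1.38), 4.27 (SE 2.31), 2.07 (SE 2.39), 3.41 (SE 2.36) and 0.36 (SE 0.39), beside a median of -0.06. The 5 estimates were positive in all 15 settings run.

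By edgeR's quasi-likelihood test with a Benjamini-Hochberg adjusted p under 0.05, 0 of the 5 were called, where 0.0156% of all genes tested were. Those were 2 genes, Strip2, higher in cKO samples (0.00779% of genes were called higher), and Nnat, lower (0.00779% called lower). Without cKO replicate 2, 0 of the 5 were called, where 0.00687% of all genes were, all of these lower (0.00687%) and 0% higher. At an unadjusted p under 0.05 the count was 4 of 5, where 2.83% of all genes were. Without cKO replicate 2 that count was 1 of 5, where 6.09% of all genes were. DESeq2 called 0 of the 5, where it called 130 of 20339 genes. It gave 6979 genes no adjusted p, so its count of 0 can include genes left without one. Limma-voom called 0, where it called 14 of 12833 genes. Scaling by RLE size factors called Sostdc1 and Trpm3, where 16 of 12833 genes were called. Every cKO library was above every control in 3 of the 10 genes (Ttr, Trpm3 and Otx2), where this held for 1.33% of the genes tested. Without cKO replicate 2 the count was again 3 of 10, and the share of all genes was 13%. Since this contrast served to choose the genes, nothing is read from these counts.

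Other genes of the choroid plexus epithelium gave no calls. Of 30 such genes, 6 had 0 counts in all libraries, among them F5, Tmem72, Trpv4 and Mfrp, and 14 were tested. By edgeR's quasi-likelihood test 0 were called higher and 0 lower. At an unadjusted p under 0.05 there was 1 of the 14, where 2.83% of all genes tested were. DESeq2 and limma-voom called 0 of these choroid plexus genes. Their median log2 fold change was 0.28 beside -0.44 over all genes tested, and 0.46 beside -0.06 without cKO replicate 2. The list summed to 531, 283 and 427 CPM in controls, against 652, 1660 and 627 CPM in cKO libraries. Its cKO values were higher than all control values, by a far smaller margin than for Ttr. That order rested on Msx1, since the sums of the groups overlapped without it.

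The 6 most abundant of these genes differed among themselves. Msx1, a homeobox gene, was at 130, 46.1 and 155 CPM in controls, against 243, 695 and 255 CPM in cKO libraries, and the keratin gene Krt18 was at 14.3, 32.3 and 81.1 CPM against 93.2, 445 and 89.5. In both, every cKO library was above every control, as in Ttr, which held for 1.33% of all genes tested and for 2 of the 14 tested here. The nucleoside and monoamine transporter gene Slc29a4 was at 39.8, 25.6 and 17.8 CPM against 55.6, 0 and 53.7 CPM. Cab39l was at 34.2, 31.7 and 19.6 CPM against 36.2, 0 and 42.2 CPM. Both had cKO replicates 1 and 3 above all controls. With cKO replicate 2 left out, that order held for 13% of the 14562 genes then tested. It held for 5 of the 14 here, which are those tested over all 6 libraries. Aqp1, the water channel of the apical membrane, was at 186, 56.2 and 12.7 CPM against 69.9, 0 and 58 CPM, and the tight junction gene Cldn1 at 19.3, 0 and 9.36 CPM against 0.144, 456 and 4.59 CPM. Only 4 of the 30 had 20 or more counts in cKO replicate 2, where Ttr was the top gene: Msx1, Krt18, Cldn1 and the bicarbonate transporter gene Slc4a5, with 37 counts. A value of 0 in that library allows up to 5.28 CPM. The apical potassium channel gene Kcnj13 and the sulphate transporter gene Slc13a4 reached 50 and 111 counts in cKO replicate 3 with none in any other library, the pattern of Folr1 and Prlr.

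Genes that act with the 10, taken from 10 lists of ligands, receptors, enzymes and relatives, likewise gave no calls. Of 93 genes, 56 were tested and 0 were called in either direction by edgeR's quasi-likelihood test. At an unadjusted p under 0.05 there were 5 of the 56, where 2.83% of all genes tested were. Limma-voom called 0 and DESeq2 called 1, Lpar1, lower in cKO samples. The median log2 fold change was -0.53 beside -0.44 over all genes tested. Without cKO replicate 2, 0 of 66 were called and 13 had an unadjusted p under 0.05, where 6.09% of all genes had.

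Around Ttr, the thyroid hormone receptor gene Thra was at 105, 158 and 96.7 CPM in controls, against 162, 0 and 195 CPM in cKO libraries. Around Enpp2, Lpar1, a receptor for the lysophosphatidic acid that autotaxin makes, was at 78.2, 209 and 141 CPM against 0.863, 0 and 12.7 CPM. Every cKO library was below every control, which held for 11.1% of all genes tested, and for 12.6% without cKO replicate 2. Plpp3, a phosphatase that degrades the same lipid, was at 85.2, 72.6 and 69.4 CPM against 63.2, 0 and 73 CPM. The log2 fold change of Lpar1 was -4.91 (SE 2.06, edgeR adjusted p = 1), or -4.41 (SE 1.11, edgeR adjusted p = 0.767) without cKO replicate 2.

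Around Sostdc1, the ligand gene Bmp7 was at 39.4, 24.8 and 64.9 CPM in controls, against 154, 350 and 126 CPM in cKO libraries, with every cKO library above every control. It was the only partner gene of the 56 tested with this order, which held for 1.33% of all genes tested. Its log2 fold change was 2.26 (edgeR adjusted p = 1), or 1.73 without cKO replicate 2. The receptor gene Bmpr2 was at 134, 82.2 and 86.2 CPM against 151, 0 and 94.4 CPM. Around Folr1, the serine hydroxymethyltransferase gene Shmt2 of mitochondrial folate metabolism was at 688, 411 and 247 CPM against 80.8, 1.76 and 155 CPM. It was below the controls in every cKO library, like Lpar1 and 5 others of the 56, where this held for 11.1% of all genes tested. The hydrolase gene Ggh, at 8.2, 12.2 and 7.44 CPM against 5.75, 726 and 10.6 CPM, lay below all controls in cKO replicate 1, above them in replicate 2 and among them in replicate 3. For Kl, the partner receptor gene Fgfr1 was at 56, 29.9 and 62.9 CPM against 136, 0 and 107 CPM, and the shedding protease gene Adam10 at 130, 56.7 and 150 CPM against 180, 0 and 103 CPM.

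For Kcne2, the channel subunit gene Kcnq1 was at 0 in all libraries, while the inositol transporter gene Slc5a3 was at 35.3, 9.01 and 126 CPM against 30.6, 1.76 and 32.4 CPM. For Prlr, the ligand gene Prl was at 0, and the feedback inhibitor genes Socs2 and Socs3 were at 7.54, 30.9 and 25.1 CPM against 18.5, 0 and 54.5 CPM and at 0, 45.8 and 126 CPM against 21.4, 0 and 50.6 CPM. Among relatives of Trpm3 and Clic6, Trpm7 and Trpm4 reached at most 37.1 and 16.8 CPM in any library, Clic1 was at 365, 627 and 639 CPM against 266, 1055 and 303 CPM, and Clic4 at 60.1, 36.8 and 124 CPM against 93, 0 and 47.6 CPM. Otx1 had 49 counts in cKO replicate 3 and 0 elsewhere, and Crx was at 0. Gbx2, which opposes Otx2 at the boundary of midbrain and hindbrain, was at 11.3, 20.1 and 2.06 CPM against 0, 0 and 15.4 CPM, and Meis2 at 268, 275 and 234 CPM against 439, 0 and 390 CPM. Most of the partners named had no count in cKO replicate 2, and neither did 5 of the 10 genes themselves. In that library 3651 genes had a count, against 14047 to 16252 elsewhere.

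Markers of other cells were measured beside the choroid plexus genes. All 11 hepatocyte genes, among them Alb and Apoa1, were at 0 in all libraries. Of 12 retinal pigment epithelium genes 6 were at 0 in all libraries, among them the defining genes Tyr, Rlbp1 and Best1. The list summed to 11.3 to 41.7 CPM in controls, against 14.5 to 17.6 CPM in cKO libraries. Its most abundant members, Rpe65 and Rdh5, had at most 221 and 201 counts.

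Of 16 ependymal genes, markers of the ciliated cells that line the ventricles, 6 were at 0 in all libraries, among them Ccdc153, Tmem212 and Rarres2. They summed to 70.1, 96.3 and 22.1 CPM in controls, against 29.4, 347 and 56.7 CPM in cKO libraries; Pifo, with 195 counts, was the only one at 20 or more counts in cKO replicate 2. Foxj1, the regulator of motile cilia, had 268, 491 and 66 counts against 0, 0 and 288. The 15 leptomeningeal and stromal genes summed to 2188 to 4720 CPM in controls, against 6417, 1270 and 3693 CPM in cKO libraries, led by Col1a2 and Igfbp2. The sums of both of these lists and of the pigment epithelium list overlapped between the groups, and their part in the Ttr values was not tested.

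Genes of the labelled cell type were measured in the same way, and some were abundant while several defining ones were at or near 0. Ptprz1 had 2929, 2043 and 731 counts across controls and 1983, 1 and 1366 across cKO libraries. C1ql1 had 1256, 3784 and 1825 counts against 282, 1 and 343, with a log2 fold change of -3.34 (SE 1.85), or -2.82 (SE 0.61, edgeR adjusted p = 0.685) without cKO replicate 2. Of 17 oligodendrocyte precursor genes 5 were at 0 in all libraries, among them the lineage factor gene Sox10. Olig2 had 67 counts in cKO replicate 3 and 0 elsewhere. Pdgfra, whose promoter drives the Cre, had 0, 59 and 56 counts across controls, against 155, 0 and 121. Other markers of the list were higher: Vcan had 341, 194 and 363 counts against 433, 0 and 468. Cspg4 had 110, 1 and 174 counts against 273, 2 and 159. Olig2, Pdgfra, Vcan and Cspg4 were picked after their values were seen. The list summed to 280 to 537 CPM in controls, against 373, 7.04 and 333 CPM in cKO libraries. In cKO replicate 2, which had the highest Ttr level, 0 of the 17 reached 20 counts. The 14 genes of committed and myelinating oligodendrocytes, a lineage that makes Enpp2, summed to 129 to 657 CPM in controls, against 240, 588 and 231 CPM in cKO libraries. In cKO replicate 2 that sum was Mal alone, with 334 counts, and Cldn11 was at 0. By edgeR's quasi-likelihood test 0 genes of the ependymal, leptomeningeal, pigment epithelium, precursor and myelinating lists were called. At an unadjusted p under 0.05 there were 0, where 2.83% of all genes tested were. Without cKO replicate 2, 0 were called and 6 were at that level, where 6.09% of all genes were. These were 3 of 14 leptomeningeal, 2 of 10 precursor and 1 of 5 ependymal genes tested. Of the pigment epithelium and myelinating lists, 0 of 4 and 0 of 6 were.

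**Figure D4:**
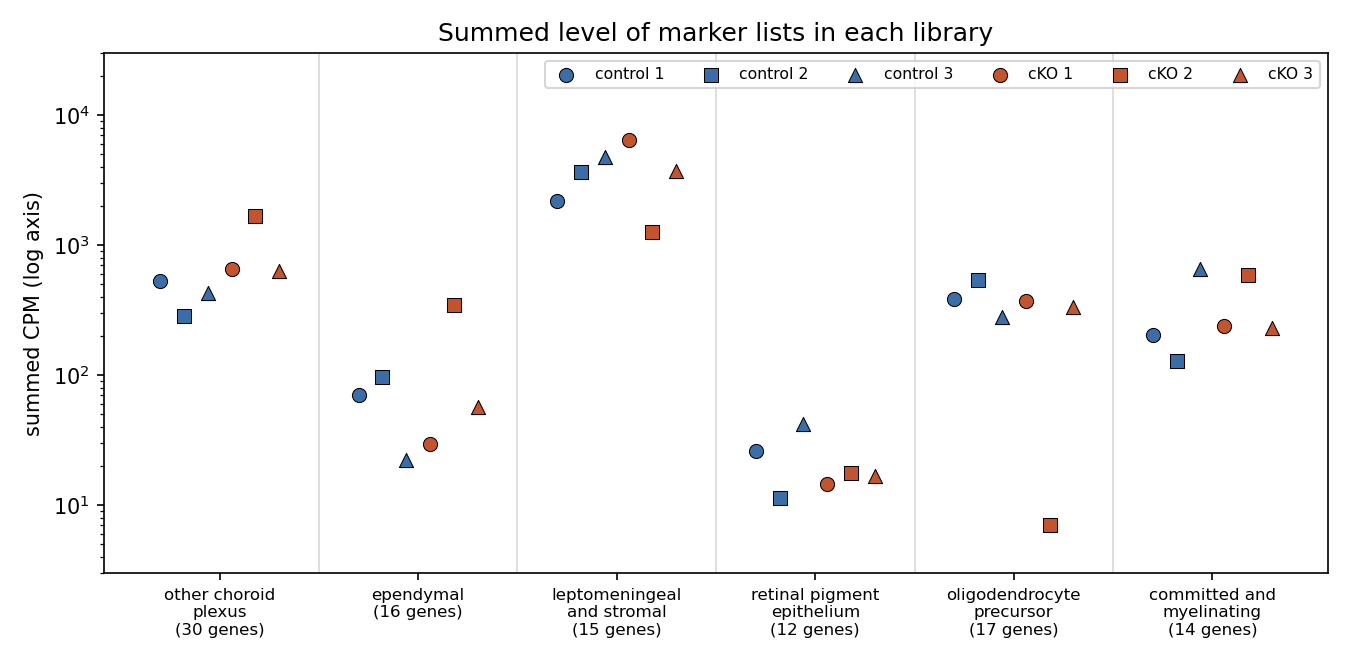
Summed CPM (log axis) of 6 marker lists in each library, with controls in blue, cKO samples in orange and the replicate number as the marker shape. The other choroid plexus genes sum to 283 to 531 CPM in controls, against 627 to 1660 CPM in cKO libraries. Without Msx1 the sums of that list overlap between the groups. The oligodendrocyte precursor genes are at 7.04 CPM in cKO replicate 2.

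The genes whose profile was most like that of Ttr were not known choroid plexus genes as a group. Ranked by Pearson correlation of log2(CPM + 1) over the 6 libraries, among protein-coding genes tested, they were Zic2 (r = 0.999), Dtx1 (0.988), Ptprd (0.981), Rps4x (0.975) and Mmp24 (0.973). All 5 had their highest CPM in cKO replicate 2, so these coefficients share the scale of that library and are a description. Zic2, a zinc finger transcription factor gene, had 227, 198 and 163 CPM in controls, against 305, 489 and 323 CPM in cKO libraries, the order of Ttr over a far narrower range. Dtx1, which encodes a regulator of Notch signalling, had 122, 12 and 2 counts against 318, 246 and 342. Of the other choroid plexus genes, Trpm3 had r = 0.939, Otx2 0.915, Enpp2 0.842 and Sostdc1 0.781. When cKO replicate 2 was left out, Zic2 led the ranking again, followed by Snap25, Gpr173, Mturn and Wsb2, so 1 of the 5 names was shared.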

How the data were processed

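Each library reads 1 tag near the transcript end (Lexogen QuantSeq, forward), per the labels' protocols. The authors deposited raw counts for every gene, produced with featureCounts 2.0.0 from STAR alignments on the Ensembl release 104 annotation of GRCm39, per the file headers; no strand option or multi-mapping option is named there. Symbols were matched for 52083 of 55416 genes and for all 10 members. CPM are counts over the library total. Genes kept by filterByExpr (12833) were scaled by TMM and tested with glmQLFit (robust) and glmQLFTest in edgeR 4.0.16 under R 4.3.3, two-sided, 3 against 3 samples, with no covariate; the threshold was a Benjamini-Hochberg adjusted p of 0.05. Results were recomputed with DESeq2 1.42.0, with limma-voom (limma 3.58.1), with RLE or upper-quartile scaling, other filters, the replicate number as a block, thinning, and leaving out each library. The members and lists were chosen with earlier results of these data known. Named genes were the members, the 6 most abundant other choroid plexus genes, the 2 most abundant of each other list, the 5 most like Ttr and the genes called; others named were chosen after their values were seen. Some genes that the rule names are not reported here. P-values measure the spread between pools of mice. Promoter and microRNA sequences are from RefSeq, GRCm38.p6; no coordinates were converted.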

Additional observations from a re-analysis of the deposited data

How the results depend on the processing

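The log2 fold changes of the 5 testable choroid plexus genes were positive under every setting run, with ranges of 5.41 to 15.58 for Ttr, 4.27 to 14.18 for Trpm3, 3.41 to 13.75 for Otx2, 2.07 to 11.11 for Sostdc1 and 0.36 to 7.42 for Enpp2, the lowest value of each without cKO replicate 2. The log2 ratio of cKO to control mean summed CPM of the 10 genes was 6.99; it was 3.50 without Ttr, 2.42 to 7.56 when 1 library was left out, the lowest without cKO replicate 2, and 0.98 without both Ttr and cKO replicate 2. The number of genes called over the whole table was 2 (1 higher, 1 lower). It was 16 with RLE size factors (14 higher, 2 lower), 0 with upper-quartile scaling (1152 at an unadjusted p under 0.05), 130 with DESeq2 (61 higher, 69 lower), 14 with limma-voom (6 higher, 8 lower), 23 with no filter and 1 to 7 when 1 library was left out; the cause was not tested. The median log2 fold change of all genes was -0.44 with TMM, -0.28 with RLE and -0.01 with upper-quartile scaling. Partner genes called numbered 0, or 1 with DESeq2, and other choroid plexus genes 0 under every setting. Same-numbered control and cKO samples correlated in their deviations from the group means by 0.08, 0.05 and 0.01, and differently numbered ones by -0.07 to 0.01. With 3 samples per group these values cannot tell whether the numbers mark pairs. The labels do not say so, and the numbers were not taken as pairs. With the replicate block 1 gene was called. Depth limits all statements on cKO replicate 2.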

Other observations

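Within the thyroid hormone list, 3 further genes had cKO counts above all control counts in replicates 1 and 3 and 0 in replicate 2. They were chosen after their values were seen. With cKO replicate 2 left out, such an order by CPM held for 13% of the 14562 genes then tested. It held for 14 of the 56 partner genes tested over all 6 libraries. Dio3, the deiodinase that inactivates thyroid hormone, had 55, 183 and 46 counts in controls, against 756, 0 and 928 in cKO libraries. The amino acid and thyroid hormone transporter gene Slc7a8 had 350, 145 and 26 counts against 1730, 0 and 1041, and the retinoid X receptor gene Rxrg had 62, 136 and 76 against 237, 0 and 786. Without cKO replicate 2 their log2 fold changes were 3.19 (SE 0.83), 3.02 (SE 0.94) and 2.58 (SE 0.95), each with an adjusted p of 0.767 by edgeR's quasi-likelihood test. None passed the threshold.

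Genes of the choroid plexus seen in 1 library alone, with 50 or more counts there and at most 1 elsewhere, were 5 in cKO replicate 3 (Folr1, Prlr, Clic6, Kcnj13 and Slc13a4), 2 in control replicate 3, 1 in control replicate 2 and 0 in the other 3 libraries, out of the 10 and the 30 further genes. Among all 55416 annotated genes, such genes numbered 190, 181 and 292 in control replicates 1 to 3. In cKO replicates 1 to 3 they numbered 135, 17 and 220. Nothing is read from these counts.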
